A study of Mus musculus with 2 samples.

Results

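Transcripts of the Bcl2 family, the caspases, the death receptors and their regulators were examined at E14.5 in RNA of the whole wild-type mouse embryo. The list held 45 gene symbols, and a gene entered when the annotation of the array paired at least 1 probe set with its symbol alone. Of the 45 genes, 41 were measured, by 104 of the 45101 probe sets of the array and as 41 of 18194 named genes. Bax, Trp53 and Ripk1 were not analysed here, and Bcl2a1a was represented only by probe sets shared with its paralogues. A pair of Affymetrix whole-genome mouse arrays carried total RNA isolated with RNAzol from E14.5 wild type embryos, as duplicates of 1 condition with no treatment or mutant beside it. The study's E14.5 embryos were of the NMRI or C57/BL6 strains, and which of these was used for the arrays, the sex of the embryos and the number pooled were not given in the sources used here, so the spread between the arrays may be technical. Because the embryo was taken whole, fewer cells of a type and less RNA per cell cannot be told apart in any signal below.

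Apoptosis removes cells in the developing limb, nervous system, blood and many epithelia. In the mitochondrial route, Bcl2 and its pro-survival relatives hold back the pore-forming effectors Bax and Bak1, and BH3-only proteins relieve that restraint. Cytochrome c then leaves the mitochondrion and assembles with Apaf1, which activates Casp9, while inhibitor of apoptosis proteins (IAPs) restrain caspases. In the other route, ligands such as Fasl bind death receptors, which recruit Fadd and Casp8, and Cflar limits this step. Trp53 raises transcription of several death genes and is held low by Mdm2 and Mdm4.

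Signals were on a linear scale and both arrays had a trimmed mean of 100. A signal was called above background when it exceeded a bound taken from genes of smell and taste receptors, which few embryonic cells use. The bound was the 95th percentile, within an array, of 81 such probe sets (olfactory, vomeronasal and bitter taste receptors), and it was 27.9 on array 1 and 33.8 on array 2. A gene passed when both arrays showed some probe set of it over the bound, not necessarily the same one. By this rule 65.5% of all genes passed. Markers of liver, muscle, neurons, cartilage, red cells, fibroblasts and basal epidermis were above the bound in 13 of 13 cases, with signals from 310.2 to 4118. Pearson's r of the log2 signals of the arrays was 0.985 across 22138 probe sets above the bound on both, which are not independent replicates. Each probe set has its own response, so a signal of 1 gene gives no measure of its amount relative to another gene. In the values that follow, the signal on array 1 is given first and that on array 2 second, for the probe set with the highest mean.

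Of the 41 measured cell death genes, 32 passed (78.0%, against 65.5% of all genes), 1 passed on array 1 only and 8 passed on neither array. The genes that did not pass were not spread evenly over the roles. Survival proteins, apoptotic caspases, mitochondrial death factors, IAPs and receptor adaptors passed in every measured case. The exceptions were 3 of 8 BH3-only genes, 3 of 4 death receptor and ligand genes and 3 of the 4 caspases that act mainly outside apoptosis. Of the genes that passed, 6 (Bid, Hrk, Casp9, Birc3, Cflar and Trp73) came within 2-fold of the bound on either array (18.8%), against 21.0% of all genes that passed. Genes with more probe sets passed more often in the whole table, and the same held here. With 1 probe set 7 of 12 cell death genes passed (48.6% of all such genes), with 2 or 3 probe sets 16 of 20 (79.9% of all), and with 4 or more 9 of 9 (93.6% of all).

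**Figure D1:**
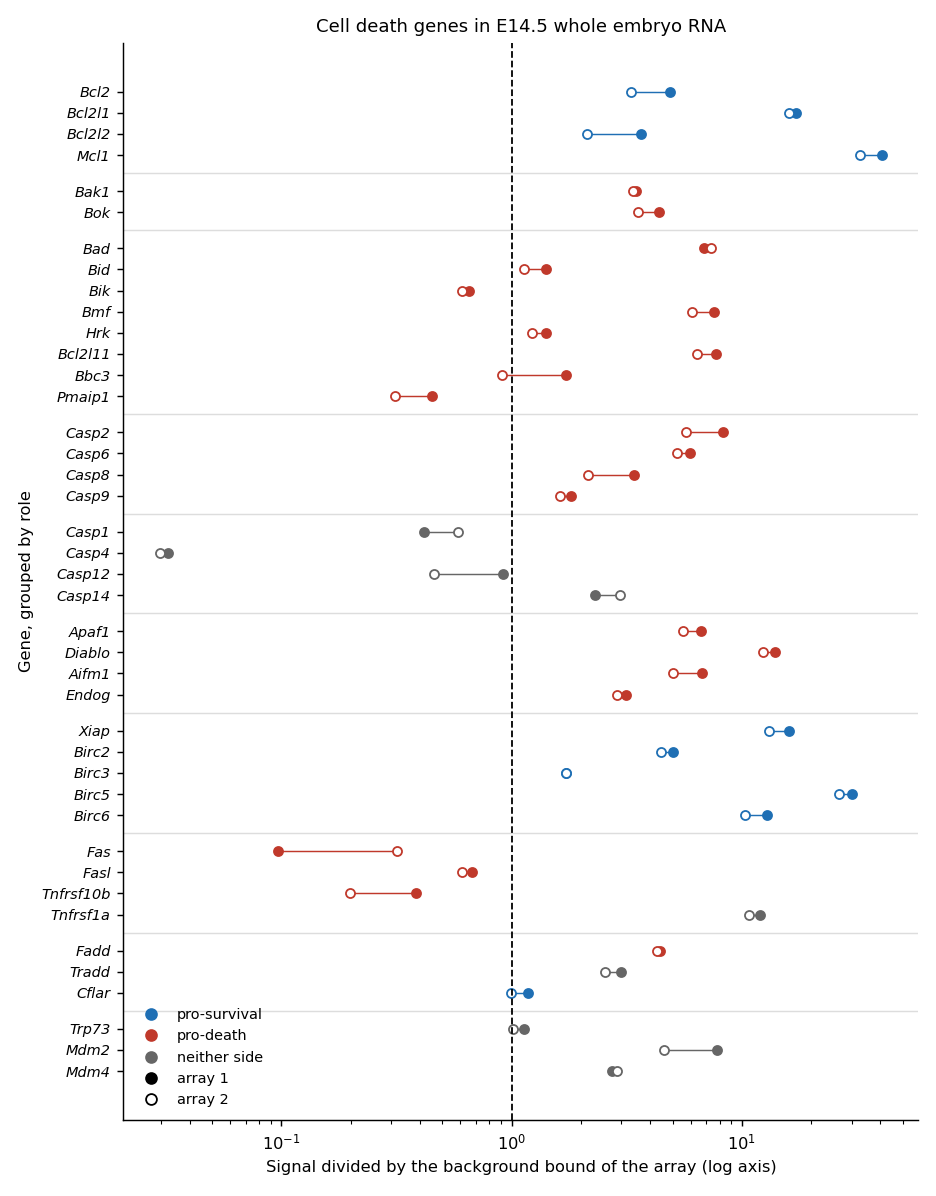
Signal of each of 41 cell death genes divided by the background bound of its array, on a log axis, for array 1 (filled) and array 2 (open), with genes grouped by role and coloured by side. The dashed line marks the bound. Fas, Fasl, Tnfrsf10b, Casp1, Casp4, Casp12, Bik and Pmaip1 lie to its left on both arrays, Bbc3 lies on either side of it, and the open circle of Cflar lies just left of it because another probe set passed on array 2.

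**Figure D2:**
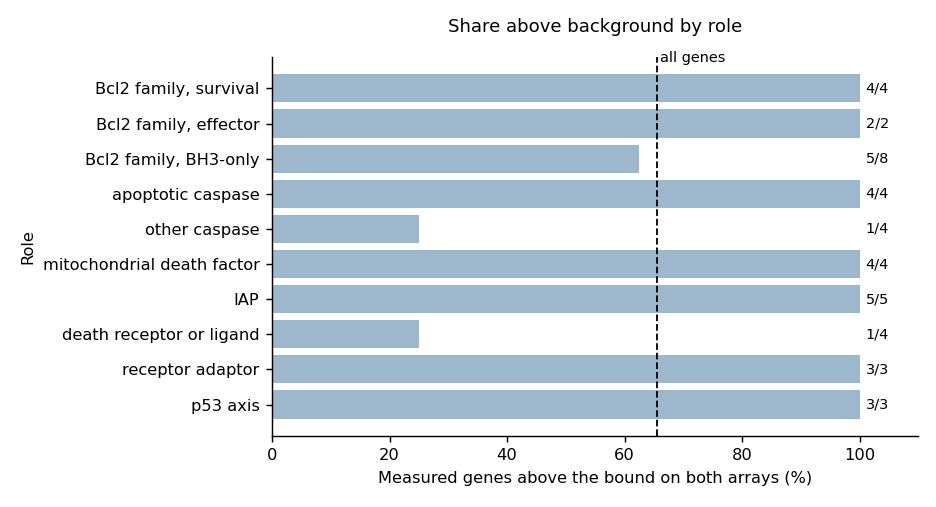
For each role, the share of its measured genes that passed on both arrays (percent), with gene counts printed beside the bars. The dashed line gives the share of all genes, 65.5%. BH3-only genes, the caspases outside apoptosis and the death receptors and ligands lie below it, at 62.5%, 25.0% and 25.0%.

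The pro-survival members of the Bcl2 family were all above background, 4 of 4 measured. Mcl1, a short-lived survival protein needed from the earliest embryonic stages, had signals of 1137 and 1099. Its 6 probe sets all passed on both arrays, with a lowest signal of 168. Bcl2l1, which encodes Bcl-xL, the survival factor of young neurons and red cell precursors, had 481 and 541. Bcl2, the founding member, had 136 and 111.5, and all of its 5 probe sets passed. Bcl2l2, which encodes Bcl-w, had 101 and 71.9, the lowest log2 difference among the cell death genes above background on both arrays (-0.51, array 2 minus array 1), through 1 of 4 probe sets. The 3 others had signals from 1.3 to 8.7, so the probe sets of this gene disagreed. For Bcl2l1, 2 of 4 probe sets passed and 1 lay far below the bound, at 3.3 and 2.0.

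The haematopoietic survival gene Bcl2a1a has near-identical paralogues, and its probe sets could not be assigned to 1 gene. The 3 probe sets shared by Bcl2a1a with Bcl2a1b and Bcl2a1d, 1 of them also with Bcl2a1c, were below the bound on both arrays, with signals from 1.7 to 19.6. Macrophage markers were above the bound in 6 of 7 cases, with Csf1r at 1048 and 1043.5 and Ptprc at 53.7 and 60.7, and Itgam was below it at 12.6 and 11.6. The 7 markers summed to signals of 1813 and 1824, and the part of such cells in the signals of Bcl2a1a, Casp1 and Casp4 was not tested.

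Among the pore-forming effectors, Bak1 had signals of 97.0 and 114 and Bok had 122 and 120. Both genes passed, and for both the arrays lay close together. The second probe set of Bak1 was at 4.7 and 2.3. Bax was not analysed here, so the effectors are represented by 2 of 3 genes.

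Of the BH3-only genes, which sense distinct kinds of stress, 5 of 8 were above background (62.5%), near the 65.5% of all genes. Bad, which links growth factor signalling to the mitochondrion, had 192 and 248 and passed with both probe sets. Bcl2l11, which encodes Bim and acts in neuron and lymphocyte death, had 216 and 215, and 4 of its 5 probe sets passed. Bmf, a sensor tied to the cytoskeleton, had 212 and 205. That signal came from a probe set of a kind shared between transcripts, and the other two lay between 3.7 and 26.5. Without probe sets of that kind Bmf was below the bound on both arrays. Hrk, a BH3-only gene of neurons, passed narrowly with both probe sets, at 39.5 and 41.5 and at 38.1 and 38.0. Bid, which connects death receptors with mitochondria, passed with 1 of 3 probe sets at 39.2 and 38.1.

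Bbc3 and Pmaip1, the Trp53 targets Puma and Noxa, did not pass on both arrays. Bbc3 was above the bound on array 1 at 48.1 and below it on array 2 at 30.6. Its only probe set gave no steady call. Pmaip1 was below on both at 12.6 and 10.5. Bik, a BH3-only gene of epithelia and blood, was below with all 3 probe sets, whose signals ran from 2.9 to 20.5.

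The apoptotic caspases passed in 4 of 4 cases, with 65.5% of all genes passing. Counted by probe set, 4 of 7 were above the bound on both arrays, with 55.6% of all named probe sets above it. Casp2, an initiator linked to DNA damage, had signals of 230 and 194, and Casp6, an executioner that cleaves lamins, had 166.5 and 177. The second probe set of Casp6 was below the bound on both arrays, at 20.4 and 26.5. Casp8, the initiator downstream of death receptors and needed for heart and yolk sac vessels, had 94.9 and 72.9 from its only probe set. Casp9, the initiator activated by Apaf1, had 50.7 and 55.1 through 1 of 3 probe sets, and the lowest of the others had 8.0 and 3.6.

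The other caspases behaved differently. Casp1, the inflammasome caspase that matures interleukins, was below the bound at 11.6 and 19.8. Casp4 (also known as caspase-11), a sensor of intracellular bacterial lipopolysaccharide, was at 0.9 and 1.0. Casp12, a caspase linked to the endoplasmic reticulum, was below with both probe sets, at 25.5 and 15.5 and at 15.3 and 15.0. These are neighbouring genes on chromosome 9, with no annotated protein-coding gene between Casp1 and Casp4 or between Casp4 and Casp12. Within the same pathway the inflammasome adaptor Pycard was above background at 257 and 285, through 1 of 3 probe sets, and 2 were below the bound on both arrays. The sensor Nlrp3 passed narrowly at 37.0 and 38.5.

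Casp14, a caspase of the cornifying epidermis, had 64.4 and 100.2 from a probe set of a kind open to cross-hybridisation. Its other probe set was at 2.9 and 0.8. The probe sets of Casp14 thus disagreed, and without the former it was below the bound on both arrays. Markers of suprabasal epidermis were above the bound in 3 of 5 cases. Krt10 had 800 and 824 and Lor had 225 and 229, while Flg and Ivl lay between 0.7 and 5.6. The summed signal of the 5 markers was 1696 and 1672, and their part in the Casp14 signal was not tested.

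The mitochondrial death factors passed with every probe set, 7 of 7, against 55.6% of all named probe sets. Apaf1, the scaffold of the apoptosome, whose loss leaves surplus neurons in the embryonic brain, had 185 and 188 with a second probe set at 52.5 and 52.1. Diablo, which displaces IAPs from caspases, had 389 and 420. Aifm1, a mitochondrial flavoprotein that can also enter the nucleus, had 188 and 169.5. Endog, a mitochondrial nuclease, had 87.2 and 96.9. Its second probe set had 28.6 and 47.6, the largest difference between the arrays among probe sets of cell death genes above the bound on both.

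The IAPs were above background in 5 of 5 cases, with 65.5% of all genes passing. Counted by probe set, 6 of 17 were above the bound on both arrays, against 55.6% of all named probe sets. Birc5, which encodes survivin and works chiefly in chromosome segregation, had 838 and 897 from 1 probe set. Markers of dividing cells were above the bound in 5 of 5 measured cases, among them Mki67 at 1075 and 1133 and Top2a at 1089 and 1020, with summed signals of 3318 and 3151, and their part in the Birc5 signal was not tested. Xiap, the direct caspase inhibitor, had 447 and 445, but only this 1 of its 7 probe sets passed on both arrays and 5 were below on both. Birc6, a very large ubiquitin ligase needed in the placenta, had 357 and 350, with 2 of 6 probe sets passing. Birc2 and Birc3, ubiquitin ligases of the TNF receptor complex, had 140.5 and 150 and 48.1 and 58.4. Birc3 passed through 1 of 2 probe sets, and the other was at 4.1 and 5.2. Birc2 and Birc3 are neighbours on chromosome 9 with no annotated protein-coding gene between them.

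**Figure D3:**
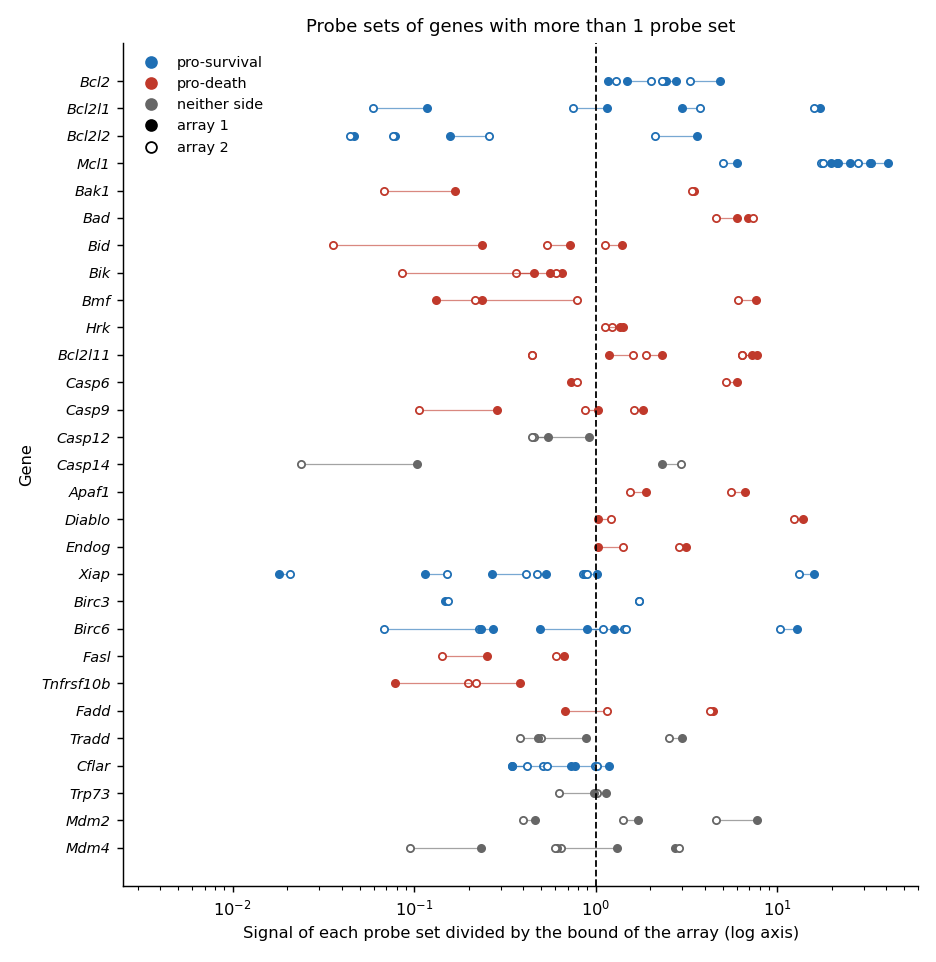
Signal of every probe set of the 29 cell death genes with more than 1 probe set, divided by the background bound of the array, on a log axis, for array 1 (filled) and array 2 (open). Lines join the values of 1 probe set. Mcl1 and Bcl2 lie to the right of the dashed bound with all of their probe sets, and Xiap with 1 of 7 on both arrays.

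The death receptors and their ligand were below background with the exception of Tnfrsf1a. Fas was at 2.7 and 10.8 and its ligand gene Fasl at 18.7 and 20.5. Tnfrsf10b, the mouse TRAIL receptor, was at 10.7 and 6.7. In these 3 genes all 5 probe sets were below the bound on both arrays. Tnfrsf1a, the broadly expressed TNF receptor that signals for both survival and death, had 334 and 362. The ligand genes Tnf (3.7 and 4.0) and Tnfsf10, which encodes TRAIL (15.0 and 28.8), from the wider list, were also below. Of the other receptors on that list, the death receptor Tnfrsf21 (97.1 and 81.5) and Tnfrsf1b (43.1 and 44.1) were above the bound. The death receptor Tnfrsf25 (11.8 and 8.3) was below it. The Tnfrsf21 signal came from a probe set of a kind shared between transcripts or open to cross-hybridisation. In all, 10 of the 14 receptors, ligands and adaptors on the wider list passed (71.4%, against 65.5% of all genes). Markers of T and NK lymphocytes, cells known for Fasl, were above the bound in 1 of 6 cases. The exception was Cd8a, at 61.4 and 109.4, through 1 of 5 probe sets, and Cd3e was at 16.6 and 7.5. The summed signal of the 6 markers was 133 on array 1 and 187 on array 2, and their part in the Fasl signal was not tested.

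The adaptors that work inside the cell passed in 3 of 3 measured cases, with 65.5% of all genes passing. Counted by probe set, 2 of 10 were above the bound on both arrays, against 55.6% of all named probe sets. Fadd, the link from receptor to caspase, had 123 and 144.5. Its second probe set, at 18.9 and 38.9, was above the bound on array 2 only. Tradd, the adaptor of Tnfrsf1a, had 83.4 and 86.2 through 1 of 3 probe sets. Cflar, the decoy that blocks Casp8 and is needed together with it for the embryonic heart, stood at the bound, with 32.9 and 33.5 for its highest probe set. It passed on array 2 only through another probe set (21.5 and 34.3), and no single probe set of the 5 passed on both arrays.

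In the Trp53 axis all 3 measured genes passed. Mdm2, the ubiquitin ligase that removes Trp53, had 217 and 155, a log2 difference of -0.50. Mdm4, which masks the activation domain of Trp53, had 76.3 and 96.8 from a probe set of a kind shared between transcripts, and without such probe sets it did not pass on both arrays. Trp73, the relative of Trp53 that acts in neurons and multiciliated cells, passed narrowly at 31.6 and 34.3, and its other probe set had 27.2 and 21.3. Relatives, regulators and targets of Trp53 on the wider list were mostly above background, with 8 of 9 passing, against 65.5% of all genes. Among them were the cell cycle inhibitor Cdkn1a (321 and 377), Ccng1 (458 and 471) and Perp, a desmosome gene (652 and 573). The exception was Cdkn2a at 14.2 and 16.3.

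Of all 39 measured genes on the wider list of the pathway, 29 passed (74.4%, against 65.5% of all genes). The electron carrier Cycs, whose release starts the apoptosome, had 2393 and 2062. Among genes of the execution phase, the nuclease gene Dffb passed narrowly at 53.4 and 53, through 1 of 2 probe sets. Dffa, which encodes the inhibitor of that nuclease, had 148 and 138, and the repair gene Parp1 had 593 and 718. Of 3 further IAP genes none passed: Birc7, Naip2 and Naip5 had signals from 6.6 to 28.4. The necroptosis kinase Ripk3 was above the bound at 93.7 and 104 and its substrate Mlkl was below at 10.7 and 3.7. Of the other Bcl2 relatives, Bcl2l10 was below at 11.0 and 16.9, and Bcl2l14 was at 9.5 on array 1 and above the bound on array 2 only. The receptor gene Tnfrsf25 was below at 11.8 and 8.3.

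Pro-survival and pro-death genes were then set side by side. The pro-survival side held the survival members of the Bcl2 family, the IAPs and Cflar, and the pro-death side the effectors, BH3-only genes, apoptotic caspases, mitochondrial death factors, Fas, Fasl, Tnfrsf10b and Fadd. The caspases outside apoptosis, Tnfrsf1a, Tradd and the Trp53 axis were assigned to neither side, where 6 of 9 passed (66.7%). On the pro-survival side 10 of 10 genes passed and on the pro-death side 16 of 22 (72.7%), a difference of 27.3 percentage points, with 65.5% of all genes passing. Within the Bcl2 family the tallies were 4 of 4 and 7 of 10. The sides also differed in how they were measured, with a median of 4.5 probe sets per pro-survival gene and 2 per pro-death gene. Counted by probe set, 20 of 41 pro-survival (48.8%) and 24 of 44 pro-death probe sets (54.5%) were above the bound on both arrays, and the difference turned to -5.76 percentage points, with 55.6% of all named probe sets above it. Among genes with 1 probe set, Birc2 and Birc5 passed on the pro-survival side (2 of 2) and Bok, Casp2, Casp8 and Aifm1 on the pro-death side (4 of 7). The order of the sides thus depended on how probe sets were counted, and with 1 condition no test was made.

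The median signals were higher on the pro-survival side under both ways of summarising a gene, by a margin that differed between them. With the highest probe set of each gene, the median of the log2 signal was 7.82 for pro-survival and 6.62 for pro-death genes, which is 227 and 98.4 on the linear scale, with 73.5 for all genes. With the mean over all probe sets of a gene, these medians were 77.2, 70.7 and 54.5. The log2 margin was 1.20 with the highest probe set and 0.13 with the mean. Taking the highest probe set favours genes with more of them by construction, and the median number per gene was 4.5 for pro-survival and 2 for pro-death genes. The medians describe sets of probe sets with unknown responses and do not compare amounts of transcript.

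Probe sets of 1 gene often gave different calls. Of 29 cell death genes with several probe sets, 16 had at least 1 above the bound on both arrays and at least 1 below it on both, 7 had all above and 4 had all below. The remaining genes were Fadd and Cflar. Of the 104 probe sets 51 were above the bound on both arrays, 10 on 1 array and 43 on neither.

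The duplicate arrays gave close signals for most cell death genes. Among the 51 probe sets above the bound on both arrays, 5 differed by more than 1.5-fold (9.80%), against 3.74% of all such probe sets, and no probe set differed by more than 2-fold. All 5 were higher on array 2, as were 568 of the 829 in the whole table. They were the second probe set of Endog (log2 difference 0.73), 1 each of Bcl2l11 (33.1 and 54.5) and Bcl2 (41.6 and 68.4), that of Casp14 and 1 of Bcl2l1 (83.4 and 127). Their mean signals were at or below 105.35, and in that range 5 of 24 probe sets of cell death genes (20.8%) and 6.34% of all probe sets differed as much. Because that limit was the highest mean of these 5 probe sets, the 20.8% was raised by construction. It cannot be compared with the share of all probe sets. Per gene, the median log2 difference was -0.02 for 9 pro-survival and 0.04 for 16 pro-death genes (array 2 minus array 1), with ranges from -0.51 to 0.27 and from -0.39 to 0.36. Differences of both signs occurred on both sides.

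**Figure D4:**
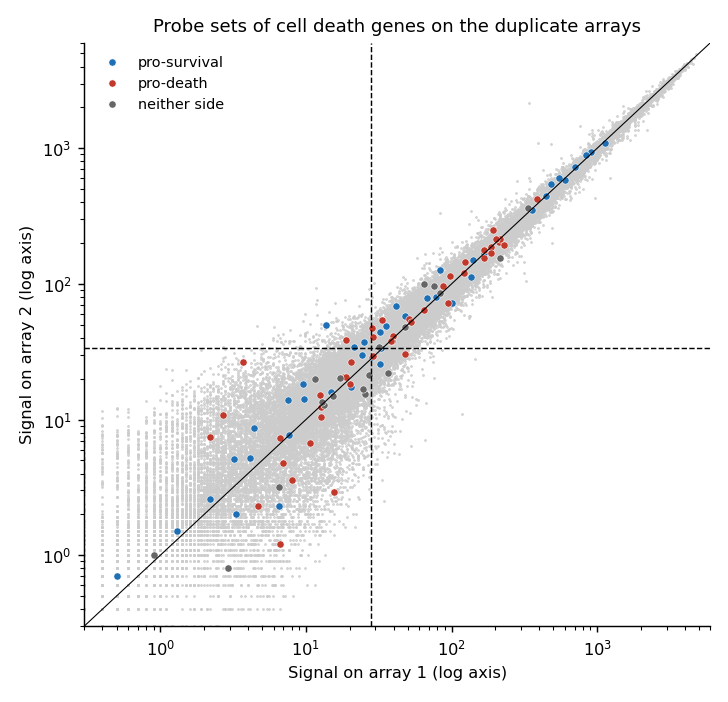
Duplicate signals (array 1 horizontal, array 2 vertical, log axes) of the 104 probe sets of cell death genes (coloured by side) over all probe sets of the array (grey). Dashed lines mark the bounds and the solid line equal signal, and signals under 0.3 are not drawn. Above both bounds the cell death probe sets stay within 2-fold of the line of equal signal.

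Promoter sequence was a feature that the list did not use. RefSeq promoters of build GRCm38.p6 were found for 41 of the 45 genes and for 37 of the 41 measured ones, and CG dinucleotides were counted in the 250 bases before each start, taking the start with the most CG where a gene had several. The letters CG read the same on both strands, and 92.1% of all promoters of this length held at least 1. The promoters below are shown because they span the range found, from the apoptosome gene Apaf1 to the caspases that were below the bound, and include the neighbours Birc2 and Birc3. They are written 5′ to 3′ along the strand of the gene, with each CG in capitals, and lie at chr10:91082744-91082993, minus strand (Apaf1, 42 CG), chr9:7837058-7837307, minus strand (Birc2, 31 CG), chr9:7873171-7873420, minus strand (Birc3, 6 CG), chr9:5298267-5298516, plus strand (Casp1, 1 CG) and chr9:5345226-5345475, plus strand (Casp12, 1 CG).
Apaf1: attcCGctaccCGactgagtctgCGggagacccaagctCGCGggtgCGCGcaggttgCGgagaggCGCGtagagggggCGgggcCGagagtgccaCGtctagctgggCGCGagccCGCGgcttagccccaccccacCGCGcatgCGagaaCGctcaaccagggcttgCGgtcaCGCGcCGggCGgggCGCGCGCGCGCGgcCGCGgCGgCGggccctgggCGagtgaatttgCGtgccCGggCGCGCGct
Birc2: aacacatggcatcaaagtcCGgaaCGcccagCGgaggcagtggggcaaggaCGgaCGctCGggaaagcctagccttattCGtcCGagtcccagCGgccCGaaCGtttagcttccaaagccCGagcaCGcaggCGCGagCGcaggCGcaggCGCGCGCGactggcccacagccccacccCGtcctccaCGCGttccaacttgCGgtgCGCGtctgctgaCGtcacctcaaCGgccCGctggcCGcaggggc
Birc3: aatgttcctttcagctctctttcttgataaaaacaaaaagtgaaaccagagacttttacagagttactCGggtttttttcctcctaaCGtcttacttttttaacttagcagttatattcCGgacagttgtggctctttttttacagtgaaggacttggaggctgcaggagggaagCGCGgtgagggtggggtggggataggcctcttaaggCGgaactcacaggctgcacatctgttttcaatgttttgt
Casp1: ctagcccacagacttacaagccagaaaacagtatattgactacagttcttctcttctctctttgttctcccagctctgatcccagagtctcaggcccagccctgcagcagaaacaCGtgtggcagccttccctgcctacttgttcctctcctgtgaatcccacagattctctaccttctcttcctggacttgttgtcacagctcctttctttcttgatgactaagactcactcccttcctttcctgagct
Casp12: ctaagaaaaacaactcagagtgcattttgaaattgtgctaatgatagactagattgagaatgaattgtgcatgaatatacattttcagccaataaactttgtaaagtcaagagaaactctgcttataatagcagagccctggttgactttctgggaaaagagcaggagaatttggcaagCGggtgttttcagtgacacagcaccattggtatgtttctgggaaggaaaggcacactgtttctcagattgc

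Casp1, Casp4 and Casp12 had from 1 to 3 CG, and the unassigned Bcl2a1a had 3. Cell death genes above the bound had a median of 18 CG (n = 31) and those not above it on both arrays a median of 5 (n = 6). Over all named genes with a promoter, which were 79.4% of the total, the medians were 17 (n = 9627) and 5 (n = 4826), so a like contrast was seen over the whole table. Of cell death genes with at most 5 CG 2 of 5 passed (31.1% of all genes in that class), and of those with 20 or more 11 of 12 (85.9% of all). The genes that passed with at most 5 CG were Casp8 and Mdm4, and the one that did not pass with 20 or more was Bbc3. In the class from 6 to 19, Fas and Fasl were the 2 of 20 that did not pass, and 73.1% of all genes in that class passed.

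**Figure D5:**
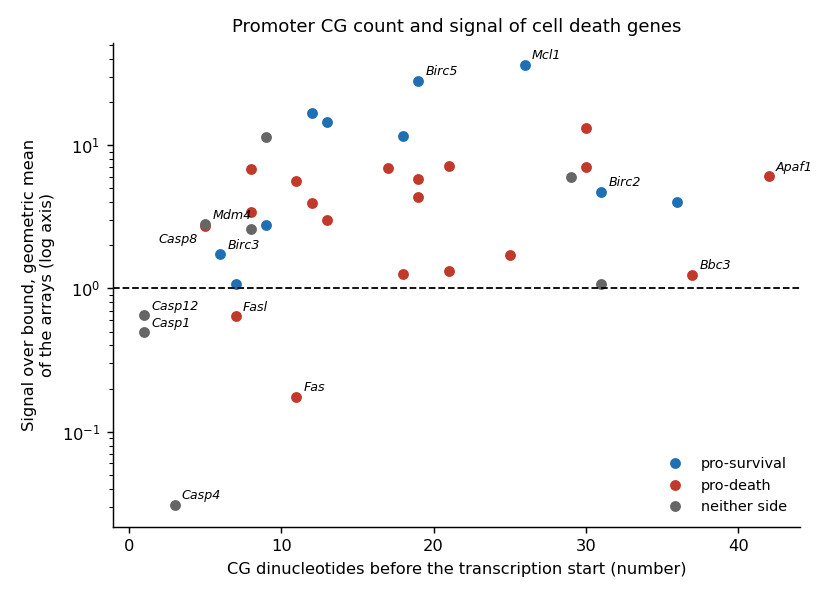
Number of CG dinucleotides in the 250 bases before the transcription start and signal divided by the bound (geometric mean of the arrays, log axis) for 37 cell death genes, coloured by side. The dashed line marks the bound. Casp1, Casp4 and Casp12 lie below it with 1 to 3 CG, and Bbc3 lies just above it in this mean although its signal on array 2 was below the bound.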

How the data were processed

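Whole wild-type embryo RNA (E14.5) was hybridised to a pair of arrays. The authors deposited 1 signal intensity per probe set and array, not on a log scale, made with GCOS 1.3 (named in the submitters' processing notes) and scaled to a mean of 100 after trimming of 2% at each end. Detection calls were not used here.

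Probe sets were named from the annotation of the array when it gave 1 symbol (34958 probe sets), with symbols updated through the RefSeq table of GRCm38.p6. A further 932 with several symbols and 9211 not listed named no gene. Signals were set against the receptor bound. Differences between arrays (log2, array 2 minus array 1) were centred on the median of probe sets above the bound on both. All 45 listed genes are named, each shown by its probe set of highest mean, with Cycs as a pathway gene central to execution, list exceptions of 5 or fewer and probe sets differing over 1.5-fold between arrays. Dffa, Dffb, Parp1, Pycard, Nlrp3, Ripk3, Tnfrsf21, Tnfrsf1b, Cdkn1a, Ccng1 and Perp were chosen as examples after their values were seen. The members, roles, sides, the wider pathway list and markers were fixed with earlier results of these data known. No p-value was computed, since there was 1 condition, and the number of arrays limits the precision.

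As alternatives, the bound was moved to the 90th percentile, the 99th percentile or the array median. Others were the same probe set required on both arrays, removal of probe sets of the kinds _x_at and _s_at, each array alone, other sides, no centring, the mean over probe sets, quantile normalization and no filter with a pseudocount of 16. The steps were tested on simulated data. Python 3.11.15, pandas 2.3.3, numpy 2.4.6, scipy 1.17.1 and matplotlib 3.10.9 were used.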

Additional observations from a re-analysis of the deposited data

How the results depend on the processing

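The number of cell death genes above background ranged from 29 to 33 over the other bounds, the same probe set required on both arrays, the removal of probe sets by kind and each array alone. With the mean over all probe sets of a gene set against the bound, chosen after seeing the data, it was 26 of 41 (63.4%, against 61.0% of all genes). The difference between the sides, 27.3 percentage points in favour of pro-survival genes, was 22.7 with the 90th and 21.8 with the 99th percentile bound, 17.3 with a bound at the array median or the same probe set required on both arrays, 31.8 without probe sets of the kinds _x_at and _s_at, and 24.0 with Mdm2, Mdm4, Trp73, Tradd and Tnfrsf1a assigned to the sides. With 1 array alone it ranged from 22.7 to 27.3. In alternatives chosen after seeing the data it was 17.3 with the highest probe set alone, 6.36 with the mean over all probe sets of a gene and -5.76, reversed, when probe sets were counted. The number of probe sets per gene enters these by construction. The median log2 signal moved to 6.27 for pro-survival and 6.14 for pro-death genes with the mean over probe sets, and for pro-death genes to 6.45 without the removed kinds and from 6.58 to 6.72 with 1 array alone (7.81 to 7.84 for pro-survival genes). The count of probe sets differing over 1.5-fold fell from 5 to 3 with the 99th percentile bound and without the removed kinds, where fewer probe sets entered. For 33 of the 41 measured genes the number of arrays above the bound did not change over those settings. With 1 array alone, a gene was set against passing on any array in the main setting. Calls of single genes were not listed for the settings chosen after seeing the data. The others were Bbc3 and Casp12 (90th percentile bound), Bid, Cflar and Trp73 (99th), and Cflar and Trp73 again with the array median. Cflar also changed with the same probe set required, and Bmf, Casp14 and Mdm4 without the removed kinds. Bbc3 changed with array 2 alone, where it was below the bound, while it passed with array 1 alone. Casp12 rose to 1 array only at the 90th percentile bound and so still did not pass. No paired analysis was possible because there is 1 group.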
